A study of Mus musculus with 9 samples.

Results

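The 9 complement genes described here, C1qa, C1qb, C1qc, C1ra, Serping1, C4b, C3, C3ar1 and C5ar1, were picked by symbol from 55335 genes measured in mouse substantia nigra. They were chosen with earlier results of these data known. All 9 were above 0 in every library, and 8 of them averaged at least 0.5 FPKM (fragments scaled to transcript length and library size) over the 9 libraries and entered the test, among 15997 genes. C5ar1 lay under that level and was tested only in a fit without this filter. The substantia nigra is the midbrain region whose dopaminergic neurons are lost in Parkinson's disease, and MPTP is a compound whose metabolite is toxic to them. RNA-seq was made from 3 libraries in each of 3 groups. Running mice were injected with MPTP in saline (20 mg/kg, into the peritoneum, 2 times a week over 5 weeks) and had a wheel for voluntary running for 2 months from the first injection on. MPTP mice had the same injections and no wheel, and vehicle mice had saline on the same schedule and no wheel. With 3 mice named per group, each library may be 1 mouse, which the labels leave unsaid, and p-values then cover only the spread among libraries. The labels used here name no strain, age or sex, and no group ran without MPTP.

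Complement is a cascade of plasma and tissue proteins that tags particles for removal. In the classical pathway, C1q binds a surface, the attached proteases C1r and C1s cut C4 and C2, and the resulting enzyme splits C3 into C3b, which coats the surface, and C3a, a signalling peptide. In the brain, microglia are the main source of C1q, astrocytes and microglia make C3 and C4, and the pathway is known for tagging synapses that microglia then remove.

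The libraries held an estimated 22400000 to 27200000 counted fragments each, if the steps between low values are single fragments, and 13413 to 13965 genes reached 1 FPKM. Dopaminergic content varied widely within groups. Th, the rate-limiting enzyme of dopamine synthesis, lay between 2.66 and 6.69 FPKM in running mice, between 1.64 and 12.5 FPKM in MPTP mice and between 2.97 and 15.6 FPKM in vehicle mice. Slc6a3, the dopamine transporter, was listed at 0 in running replicate 2 and at 0.0377 FPKM in MPTP replicate 2, against up to 14.4 FPKM in the other libraries. Markers of the choroid plexus summed to 21.5 to 955 FPKM in running mice, 961 to 2080 FPKM in MPTP mice and 38.2 to 347 FPKM in vehicle mice. In this whole tissue, fewer cells of a type and less RNA per cell cannot be told apart.

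The 3 C1q chains were the most abundant members. Averaged over all 9 libraries, the level of C1qb was 31.2 FPKM, of C1qa 30.7 FPKM and of C1qc 15.6 FPKM. C4b followed at 5.83 FPKM and Serping1 at 2.85 FPKM. Below 1 FPKM lay C1ra (0.749), C3 (0.659), C3ar1 (0.582) and C5ar1 (0.233). Some neighbours in this order did not separate: C1qb exceeded C1qa in 5 of 9 libraries, C1ra exceeded C3 in 4 of 9, and C3 exceeded C3ar1 in 4 of 9. The other neighbours kept their order in 9 of 9 libraries. The coefficient of variation over the libraries was 17.4% to 19.3% for the C1q chains, 20.1% for C3ar1, 51.3% for C1ra and 54.6% for C3.

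**Figure D1:**
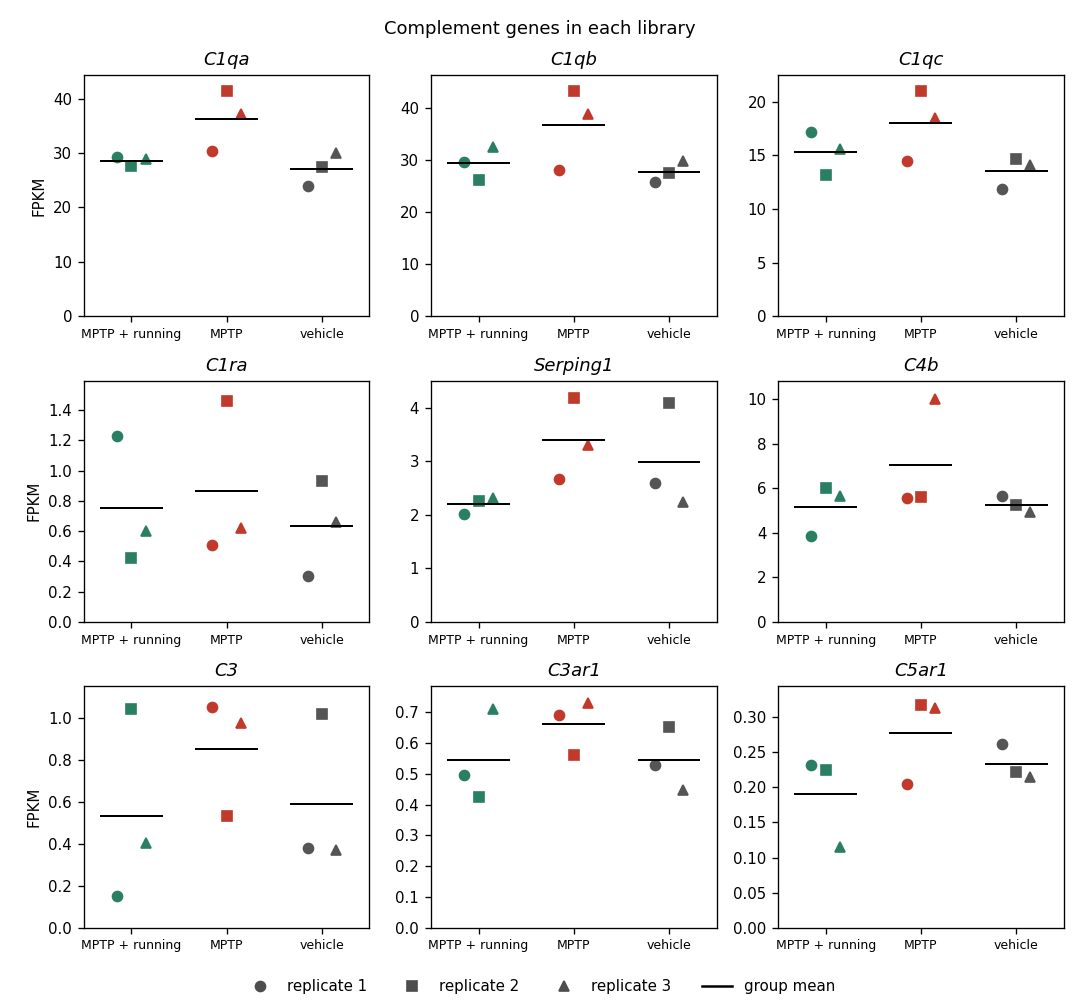
FPKM of each of the 9 complement genes in each library, by group (MPTP + running, MPTP, vehicle; points are libraries, marker shape is the replicate number, lines are group means). The C1qa points of MPTP mice, 30.3 to 41.4 FPKM, lie above those of both other groups, while the points of C3 and C1ra overlap widely.

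The C1q genes encode the 3 chains of the recognition molecule and lie side by side on the minus strand of chromosome 4 (GRCm38), C1qb at 136880129 to 136886187, C1qc at 136889804 to 136893065 and C1qa at 136895917 to 136898803. All are protein coding, the 3 genes span 18675 bases, and no annotated exon of another gene overlaps them. Promoter windows (RefSeq, GRCm38.p6, the 250 bases before the start) were at hand for 6 of the 9 members. The RefSeq and GENCODE starts differ for some genes, and the window reached into the GENCODE gene by 151 bases for C1qc, 216 for C1ra, 202 for C5ar1 and 4 for C3ar1. For C1qc only the 99 bases outside the GENCODE gene are shown. The windows of C1qb, C1qc and C3 are shown, chosen after their RNA levels were seen. That of C1qb held no match to the motifs searched, and no window was at hand for C1qa. Whether any motif bears on the RNA levels was not tested. Capitals mark a motif match in the window: in C1qc the PU.1 motif GAGGAAGT as its reverse complement, at positions -195 to -188 from the RefSeq start (-44 to -37 from the GENCODE start), and in C3 the C/EBP motif TTGCNNAA, at positions -45 to -38. PU.1 is the transcription factor of the myeloid lineage, and C/EBP factors drive acute-phase genes in liver.
C1qb, chr4:136886201-136886450, minus strand: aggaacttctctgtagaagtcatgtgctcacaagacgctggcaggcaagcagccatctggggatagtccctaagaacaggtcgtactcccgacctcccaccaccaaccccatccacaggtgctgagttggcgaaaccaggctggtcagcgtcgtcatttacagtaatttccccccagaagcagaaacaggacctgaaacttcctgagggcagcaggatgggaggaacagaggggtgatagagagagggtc
C1qc, chr4:136893066-136893164, minus strand: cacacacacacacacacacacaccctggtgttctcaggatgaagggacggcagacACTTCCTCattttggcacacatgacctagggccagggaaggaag
C3, chr17:57228137-57228386, minus strand: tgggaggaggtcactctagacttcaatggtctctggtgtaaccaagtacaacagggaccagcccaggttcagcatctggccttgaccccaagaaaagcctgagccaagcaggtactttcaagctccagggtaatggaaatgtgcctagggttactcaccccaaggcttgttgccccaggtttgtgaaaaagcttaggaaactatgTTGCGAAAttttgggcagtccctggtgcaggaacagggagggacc

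Motifs were searched on both strands in windows of the same length for all genes. Over 32851 such windows, the PU.1 motif was in 2.44%, the C/EBP motif in 9.56% and the AP-1 motif TGANTCA in 6.75%. The AP-1 motif matched once among the members, at positions -22 to -16 from the RefSeq start of C3ar1. The interferon motifs searched, the ISRE (TTTC, any 2 bases, TTTC, in 2.98% of all windows) and TTCNNNGAA (in 7.02%), had no match in the 6 windows, which says only that these letters are not there. The matches are descriptions of sequence and not sites of binding.

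C1q RNA was higher in MPTP mice than in vehicle mice by about 0.4 on the log2 scale in the main fit, and no chain passed the test across all genes. Over all fits the differences of the chains ran from 0.23 to 0.55. C1qa, the A chain, had 30.3, 41.4 and 37.1 FPKM in MPTP mice, against 23.9, 27.4 and 30.0 FPKM in vehicle mice. The groups did not overlap, although MPTP replicate 1 lay only just above vehicle replicate 3. The ratio of the means was 1.34 and the difference of log2(FPKM + 1), the scale of every log2 difference given here, was 0.40 (SE 0.12, 95% interval 0.12 to 0.68, limma adjusted p = 0.991). An exact two-sided permutation test on C1qa alone gave p = 0.1, the smallest that 3 libraries against 3 allow. The C1qa difference was 0.29 with libraries weighted by quality and 0.30 without MPTP replicate 2. It was 0.33 with all libraries rescaled to the same total.

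C1qb, the B chain, had 28.0, 43.2 and 38.8 FPKM in MPTP mice and 25.7, 27.4 and 29.7 FPKM in vehicle mice. C1qc, the C chain, had 14.5, 21.0 and 18.5 FPKM in MPTP mice and 11.9, 14.7 and 14.1 FPKM in vehicle mice. MPTP replicates 2 and 3 were the highest 2 of the 6 libraries for each of these chains, and MPTP replicate 1 lay within the vehicle range. The log2 difference was 0.38 for C1qb (95% interval 0.02 to 0.73) and 0.37 for C1qc (0.03 to 0.72), each with an adjusted p of 0.991 by limma. With libraries weighted by quality (limma array weights) these were 0.24 and 0.23, and without MPTP replicate 2 they were 0.25 and 0.26. Rescaled to the same total, both were 0.30.

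In running mice the chains lay near the vehicle level. C1qa had 29.2, 27.7 and 29.0 FPKM in running mice, below every MPTP library, and the log2 difference from MPTP mice was -0.32 (95% interval -0.60 to -0.04, limma adjusted p = 1, exact permutation p = 0.1). C1qb had 29.6, 26.1 and 32.4 FPKM in running mice, and C1qc 17.2, 13.2 and 15.6 FPKM. Both overlapped the MPTP libraries through MPTP replicate 1, with log2 differences from MPTP mice of -0.30 (interval -0.65 to 0.06) and -0.21 (-0.55 to 0.13). With array weights the difference from MPTP mice was -0.22 for C1qa, -0.12 for C1qb and -0.06 for C1qc. Leaving out 1 library moved C1qb between -0.47 (without MPTP replicate 1) and -0.17 (without MPTP replicate 2), and C1qc between -0.35 and -0.10 without the same libraries, with -0.11 for C1qc without running replicate 2. Against vehicle mice the log2 differences of the chains in running mice were 0.08 for C1qa (interval -0.20 to 0.36), 0.08 for C1qb (-0.27 to 0.44) and 0.16 for C1qc (-0.18 to 0.51), and every chain overlapped. When all libraries were rescaled to the same total, the differences of C1qa and C1qb from vehicle mice turned to about 0. The comparisons with MPTP mice share the MPTP libraries, so the difference above vehicle mice and the difference below MPTP mice are not independent of each other.

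The 3 chains kept similar proportions across the libraries. The ratio of C1qb to C1qa ran from 0.925 to 1.12, and the ratio of C1qc to C1qa from 0.468 to 0.59. Over the 9 libraries, the log2 levels of C1qa and C1qb had a Pearson correlation of 0.942 (permutation p = 0.000502, 0.00903 after Benjamini-Hochberg adjustment over all 36 pairs of the 9 genes) and a Spearman rho of 0.833 (adjusted permutation p = 0.149). Without MPTP replicates 2 and 3, the libraries farthest from the median of C1qa, the Pearson correlation was 0.657. After removal of the group means it was 0.901, so the chains also varied together among libraries of the same group. C1qc had Pearson correlations of 0.907 with C1qa and 0.914 with C1qb, and 0.868 and 0.864 after that removal. C1ra had Pearson correlations of 0.6, 0.589 and 0.806 with C1qa, C1qb and C1qc. After removal of the group means these were 0.709, 0.605 and 0.894. The adjusted permutation p of C1ra by Pearson was 0.455 with C1qa, 0.455 with C1qb and 0.0792 with C1qc. For the pairs among the chains it was 0.00903 to 0.00936. C1ra rests on an estimated 20 to 102 fragments a library, and these values do not settle whether it varied with the chains. By Spearman rho, none of the 36 pairs had an adjusted permutation p under 0.149. C3 did not follow the chains, with Pearson correlations of 0.129, -0.0611 and -0.0795 with C1qa, C1qb and C1qc.

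C1q was then set against 12 microglia markers in the same library, as a description. The markers summed to 101 to 125 FPKM in running mice, 108 to 141 FPKM in MPTP mice and 97.0 to 125 FPKM in vehicle mice, and none of the 12 was at 0 in all libraries. In MPTP mice against vehicle mice, 10 of the 12 were higher and 2 lower, none past the threshold, with a median log2 difference of 0.08. P2ry12, a purine receptor of resting microglia, went the other way, with 4.91 ± 0.596 FPKM in MPTP mice and 6.98 ± 1.97 FPKM in vehicle mice (SD, n = 3 each). The mean log2 level of the C1q chains exceeded that of the markers by 1.83, 1.83 and 1.75 in running mice, by 1.88, 2.08 and 2.08 in MPTP mice and by 1.75, 1.74 and 1.61 in vehicle mice. All 3 MPTP libraries lay above the other 6, but narrowly, the lowest at 1.88 and the highest running library at 1.83. This held with any 1 of the 12 markers left out, a check chosen after the values were seen. It is a weak check, since leaving out 1 of 12 markers changes their mean little. Without P2ry12 the lowest MPTP library was at 1.87 and the highest running library at 1.85. Over these versions the C1q excess in MPTP mice over vehicle mice was 0.27 to 0.34 on the log2 scale. The difference of running from MPTP mice was -0.25 to -0.14. How far microglial number took part in the C1q values was not tested.

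**Figure D2:**
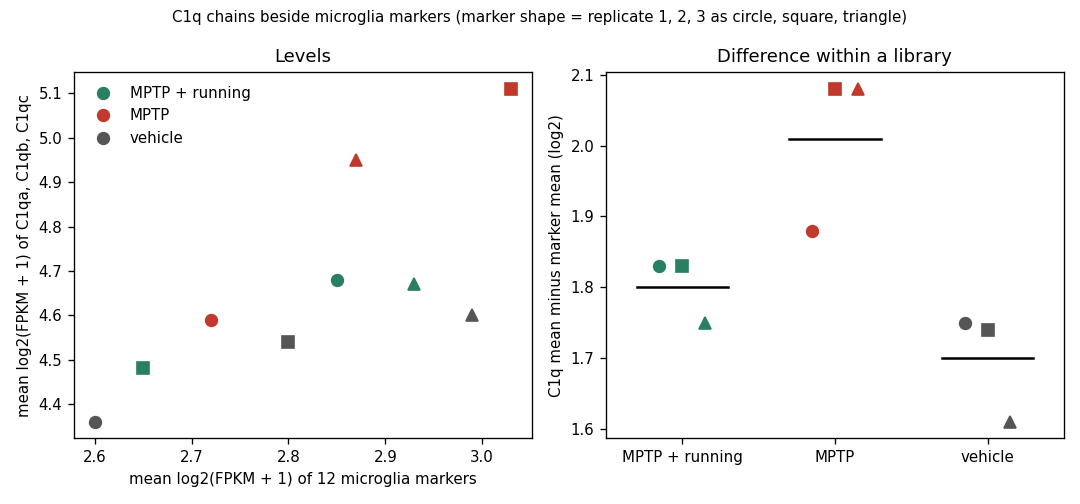
Left, mean log2(FPKM + 1) of the 3 C1q chains against that of 12 microglia markers, 1 point a library. Right, the difference between both means in each library by group (MPTP + running, MPTP, vehicle; lines are group means of 1.8, 2.01 and 1.7); the MPTP libraries, at 1.88 to 2.08, are the highest.

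C1ra, the protease that C1q activates, varied more within groups than between them. It lies on the plus strand of chromosome 6 (124512405 to 124523443). It had 1.23, 0.42 and 0.603 FPKM in running mice, 0.508, 1.46 and 0.623 FPKM in MPTP mice and 0.303, 0.928 and 0.662 FPKM in vehicle mice. The highest library was replicate 1 in running mice and replicate 2 in both other groups, and the groups overlapped throughout. The log2 difference was 0.18 in MPTP mice against vehicle mice (interval -0.37 to 0.72) and -0.08 in running mice against MPTP mice (-0.63 to 0.47), and without MPTP replicate 2 these were -0.04 and 0.14. Its paralog C1rb was listed at 0 in 8 of 9 libraries. How the authors' counting divided reads between such copies is not stated.

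Serping1 encodes the C1 inhibitor, which blocks C1r and C1s, and lies on chromosome 2 (84765387 to 84775444, minus strand). It was lower in running mice than in every MPTP library. Serping1 had 2.02, 2.25 and 2.31 FPKM in running mice, 2.67, 4.18 and 3.31 FPKM in MPTP mice and 2.60, 4.09 and 2.24 FPKM in vehicle mice. Running mice were also the most uniform group, at 2.19 ± 0.152 FPKM, against 3.38 ± 0.759 FPKM in MPTP mice and 2.98 ± 0.979 FPKM in vehicle mice (SD, n = 3 each). The log2 difference of running from MPTP mice was -0.44 (SE 0.18, 95% interval -0.85 to -0.03, limma adjusted p = 1, exact permutation p = 0.1). Against vehicle mice it was -0.29 (interval -0.70 to 0.12) with overlap through vehicle replicate 3. It was -0.10 without vehicle replicate 2. MPTP mice against vehicle mice gave 0.15 (-0.26 to 0.56), and leaving out 1 library moved this between 0.02 (without vehicle replicate 3) and 0.35 (without vehicle replicate 2), with 0.03 without MPTP replicate 2.

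Markers of vessels and meninges, like those of several other lists, were lower in running than in MPTP mice, as Serping1 was. The 7 fibroblast and meningeal markers summed to 15 to 22.1 FPKM in running mice, 27.3 to 35.6 FPKM in MPTP mice and 19.0 to 37.8 FPKM in vehicle mice, and all 7 had negative log2 differences in running against MPTP mice (median -0.34). All 6 endothelial markers (median -0.27) and all 6 pericyte and smooth muscle markers (median -0.33) were likewise lower, none of them past the threshold. Of all tested genes, 54.3% were lower in that comparison. The direction was not particular to these cells. All 10 choroid plexus markers (median -1.13), all 20 interferon response genes (-0.55) and 10 of 12 microglia markers (-0.07) were lower too. Astrocyte markers split into 4 higher and 4 lower, and all 5 neuron markers were higher. The part of these cells in the Serping1 values was not tested. The 5 genes whose log2 level followed Serping1 most closely over the 9 libraries, among 12196 genes ranked, were Zdhhc7, Lyz2, Aebp1, Fmod and Ogn (Pearson r 0.942, 0.94, 0.934, 0.923 and 0.921). Lyz2 encodes the lysozyme of myeloid cells, and Fmod and Ogn encode proteoglycans of connective tissue.

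C4b, the mouse C4 that C1s cuts, was set apart by 1 library. The gene lies on chromosome 17 (34728380 to 34743882, minus strand). It had 3.85, 6 and 5.64 FPKM in running mice, 5.58, 5.60 and 10.0 FPKM in MPTP mice and 5.63, 5.26 and 4.91 FPKM in vehicle mice. MPTP replicate 3 held the 10.0 FPKM, and the other 2 MPTP libraries lay within the vehicle range. The log2 difference of MPTP from vehicle mice was 0.32 (interval -0.17 to 0.81), and 0.07 without that library. Running against MPTP mice gave -0.36 (-0.85 to 0.13), -0.12 without it and -0.20 without running replicate 1. The paralog C4a averaged 0.355 FPKM, and reads shared by both copies make the split between them uncertain.

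C3, the component on which all routes of activation meet, was low and scattered. It lies on chromosome 17 (57203970 to 57228136, minus strand). C3 had 0.153, 1.04 and 0.404 FPKM in running mice, 1.05, 0.53 and 0.974 FPKM in MPTP mice and 0.38, 1.02 and 0.37 FPKM in vehicle mice. A library near 1 FPKM occurred in every group. The log2 difference was 0.23 in MPTP against vehicle mice (interval -0.31 to 0.78), -0.30 in running against MPTP mice (-0.85 to 0.24) and -0.07 in running against vehicle mice (-0.61 to 0.47). Each interval holds both 0 and a difference as large as that of C1qa in the same comparison. The C3 differences were 0.54, -0.81 and -0.27 on a scale of log2(FPKM + 0.1). Leaving out 1 library moved the first between 0.14 (without vehicle replicate 3 or 1) and 0.42 (without vehicle replicate 2). It moved the second between -0.53 (without running replicate 2) and -0.12 (without running replicate 1).

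Of the receptors for the released peptides, C3ar1 binds C3a and C5ar1 binds C5a, and both sit on microglia and other myeloid cells. C3ar1 (chromosome 6, 122847138 to 122856161, minus strand) had 0.495, 0.423 and 0.711 FPKM in running mice, 0.691, 0.561 and 0.731 FPKM in MPTP mice and 0.529, 0.652 and 0.448 FPKM in vehicle mice. All groups overlapped, and the log2 difference was 0.11 in MPTP against vehicle mice (interval -0.13 to 0.35), -0.11 in running against MPTP mice (-0.35 to 0.13) and near 0 in running against vehicle mice (-0.24 to 0.24). On a scale of log2(FPKM + 0.1) the first 2 were 0.25 and -0.26. C5ar1 (chromosome 7, 16246743 to 16259540, minus strand) had 0.231, 0.225 and 0.115 FPKM in running mice, 0.204, 0.317 and 0.312 FPKM in MPTP mice and 0.261, 0.221 and 0.215 FPKM in vehicle mice. These values rest on an estimated 8 to 19 fragments a library, and the groups overlapped. A fit of all genes without the filter gave C5ar1 log2 differences of 0.05 in MPTP against vehicle mice, -0.10 in running against MPTP mice and -0.05 in running against vehicle mice (limma adjusted p = 0.932, 1 and 0.88). The log2 level of C3ar1 minus the mean of the microglia markers was -2.27 to -2.14 in running mice, -2.38 to -1.96 in MPTP mice and -2.46 to -1.99 in vehicle mice, with overlap of all groups.

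Read together, the 8 tested members gave no gene past the adjusted threshold of 0.05 by limma in any comparison. In MPTP against vehicle mice all 8 log2 differences were positive, with a median of 0.28 against -0.01 over all tested genes, of which 48.1% were positive (31.86% after rescaling all libraries to the same sum, with all 8 members still positive). The signs of C1ra and Serping1 turned when libraries were weighted by their quality, and that of C1ra also without MPTP replicate 2. The C1q chains, 3 of the 8, were under an unadjusted p of 0.05, against 2.61% of all tested genes in that direction and 1.48% in the other. C1qa was the 1 member whose groups did not overlap, against 5.2% of all genes in that direction and 4.23% in the other. At the adjusted threshold 2 genes in all passed, 0.0125% of those tested, Igfbp2 and H2-K1. The members were chosen with earlier results of these data known, so these counts and those below are descriptions. Nor are the members independent draws, since the levels of the C1q chains were correlated.

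In running against MPTP mice all 8 log2 differences were negative, with a median of -0.30 against -0.01 over all genes, 45.7% of which were positive. Here too C1ra turned in sign under quality weights, without MPTP replicate 2 and without running replicate 2 (0.06). C1qa and Serping1 were under an unadjusted p of 0.05 and did not overlap, 2 of 8 on each count, against 2.89% and 5.36% of all genes in that direction. In the other direction 1.11% of all genes were under that p. At the adjusted threshold 0% of all genes passed in that comparison. In running against vehicle mice 4 members were higher and 4 lower, with a median of 0.04 against -0.02 over all genes, 44.7% of which were positive (29.19% after that rescaling). None of the 8 was under an unadjusted p of 0.05, against 3.12% of genes higher and 3.43% lower, none was without overlap (6.38% and 9.2% of all genes), and 0% of all genes passed at the adjusted threshold. The running and MPTP comparisons with vehicle mice share the vehicle libraries.

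**Figure D3:**
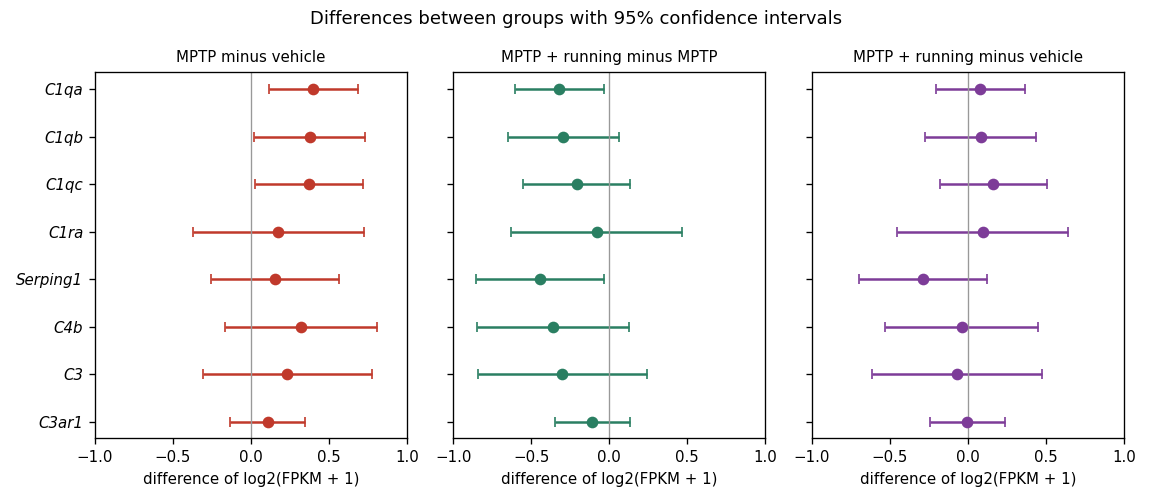
Difference of log2(FPKM + 1) with its 95% confidence interval (limma, all 9 libraries in 1 fit) for the 8 tested members, in 3 comparisons. For MPTP minus vehicle all 8 points are positive (C1qa 0.40), for MPTP + running minus MPTP all 8 are negative (Serping1 -0.44), and for MPTP + running minus vehicle every interval holds 0.

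A list of interferon response genes, like C1q, was higher in MPTP than in vehicle mice. It was chosen with earlier results of these data known, so its counts are descriptions. All 20 of that list were higher in MPTP than in vehicle mice (median log2 difference 0.96, 17 under an unadjusted p of 0.05 against 2.61% of all tested genes, none past the adjusted threshold). They summed to 156 to 170 FPKM in running mice, 186 to 324 FPKM in MPTP mice and 105 to 124 FPKM in vehicle mice. B2m alone averaged 102, 157 and 71.4 FPKM in these groups. The mean log2 level of the list was 1.99 to 2.07 in running mice, 2.02, 2.80 and 3.06 in MPTP mice and 1.62 to 1.74 in vehicle mice. By that level MPTP replicate 1 lay within the running range. Running mice lay above vehicle mice for this list, while the C1q chains of these groups overlapped. The choroid plexus sums given above were also highest in MPTP mice, and the part of either list in the C1q values was not tested. The 5 genes most like the mean of the C1q chains over the 9 libraries were Irf1 (r 0.959), Polr3d (0.951), Mpeg1 (0.944), Ube2l6 (0.934) and Aif1 (0.929). Irf1 is a transcription factor of the interferon response, Mpeg1 a pore-forming protein of macrophages and microglia, and Aif1 the microglial protein known as IBA1. P2ry12, by contrast, had an r of -0.37 with the C1q mean.

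C3 and C4b had other neighbours than C1q. The 5 genes nearest to C3 were Nyap1 (r 0.914), Mbd6 (0.91), Pold1 (0.902), Cgnl1 (0.893) and Slc39a13 (0.891). Those nearest to C4b were Rnf213 (r 0.948), Lrch4 (0.926), Zscan25 (0.924), Mia2 (0.921) and Zc3hav1 (0.914). Rnf213 and Zc3hav1 encode antiviral proteins, and MPTP replicate 3 is the library that stands highest for C4b. All these correlations rest on 9 libraries and are descriptions.

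Of 46 other complement genes, 44 were above 0 in some library and 21 reached 0.5 FPKM and were tested. Mbl1, a mannose-binding lectin, and Cfd, factor D, were listed at 0 in all 9 libraries. No other complement gene passed the adjusted threshold in any comparison. In MPTP against vehicle mice 9 were higher and 12 lower (median log2 difference -0.05), none under an unadjusted p of 0.05 (2.61% of all genes higher and 1.48% lower), and 4 were higher without overlap (5.2% of all genes). In running against MPTP mice 8 were higher and 13 lower (median -0.08), with 3 lower under an unadjusted p of 0.05 (2.89% of all genes) and 5 lower without overlap (5.36% of all genes). In running against vehicle mice 4 were higher and 17 lower (median -0.11), with 1 higher and 1 lower under an unadjusted p of 0.05 (3.12% and 3.43% of all genes). There, 2 were higher and 4 lower without overlap (6.38% and 9.2% of all genes).

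Among the soluble regulators, Vtn and Clu are given here. Vtn encodes vitronectin, which blocks the membrane attack complex, and had 16.7, 19.4 and 17.7 FPKM in running mice, 22.3, 28.5 and 23.9 FPKM in MPTP mice and 28.6, 29.6 and 24.0 FPKM in vehicle mice. Every running library lay below every other library. The log2 difference of running mice was -0.45 from MPTP mice (SE 0.12, limma adjusted p = 1) and -0.58 from vehicle mice (SE 0.12, limma adjusted p = 0.753). The vessel and meningeal markers described with Serping1 moved in the same direction, and their part in Vtn was not tested. Clu, clusterin, the most abundant of the 46 at 172 ± 27.3 FPKM in running mice, 191 ± 11.3 FPKM in MPTP mice and 166 ± 11.5 FPKM in vehicle mice (SD, n = 3 each), was higher in every MPTP library than in any vehicle library (log2 difference 0.21).

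Among membrane regulators, Cd55, decay-accelerating factor, averaged 1.2 ± 0.0873 FPKM in running mice, 1.56 ± 0.0887 FPKM in MPTP mice and 1.33 ± 0.13 FPKM in vehicle mice. Its log2 difference was -0.22 in running against MPTP mice and 0.14 in MPTP against vehicle mice. Cd59a, which stops assembly of the membrane attack complex, had 6.97, 13 and 6.74 FPKM in running mice, 11.2, 3.69 and 5.66 FPKM in MPTP mice and 3.81, 2.95 and 4.84 FPKM in vehicle mice, a log2 difference of running from vehicle mice of 0.99 (SE 0.36, limma adjusted p = 0.753). Cd59b is a close copy of Cd59a, so the split of reads between them is uncertain. Cd46 had a log2 difference of -0.19 in running against MPTP mice and -0.27 against vehicle mice, and its exons overlap an annotated gene on the opposite strand.

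In the remaining classes every 95% interval of the genes named held 0. For the lectin pathway Masp1 had log2 differences of -0.07 in MPTP against vehicle mice and 0.05 in running against MPTP mice, and for the collectin Colec12 they were 0.00 and -0.13. For the alternative pathway Cfb, factor B, gave 0.12 and -0.23, with every running library below every MPTP library, and Cfp, properdin, gave -0.06 and -0.08. Cfb shares exonic bases with an annotated gene on the same strand, so its values are uncertain. C8g, the single terminal component that was tested, gave -0.06 and -0.05. Among receptors, Itgb2, the shared chain of complement receptors 3 and 4, was 0.17 higher in MPTP than in vehicle mice without overlap, and C1qbp was 0.15 higher. In running against MPTP mice Itgam, the other chain of complement receptor 3, gave -0.25 and Cd93 gave -0.15, and Itgam shares exonic bases with an annotated gene on the same strand. In running against vehicle mice C1qbp gave 0.20 and Cd93 gave -0.19.

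**Figure D4:**
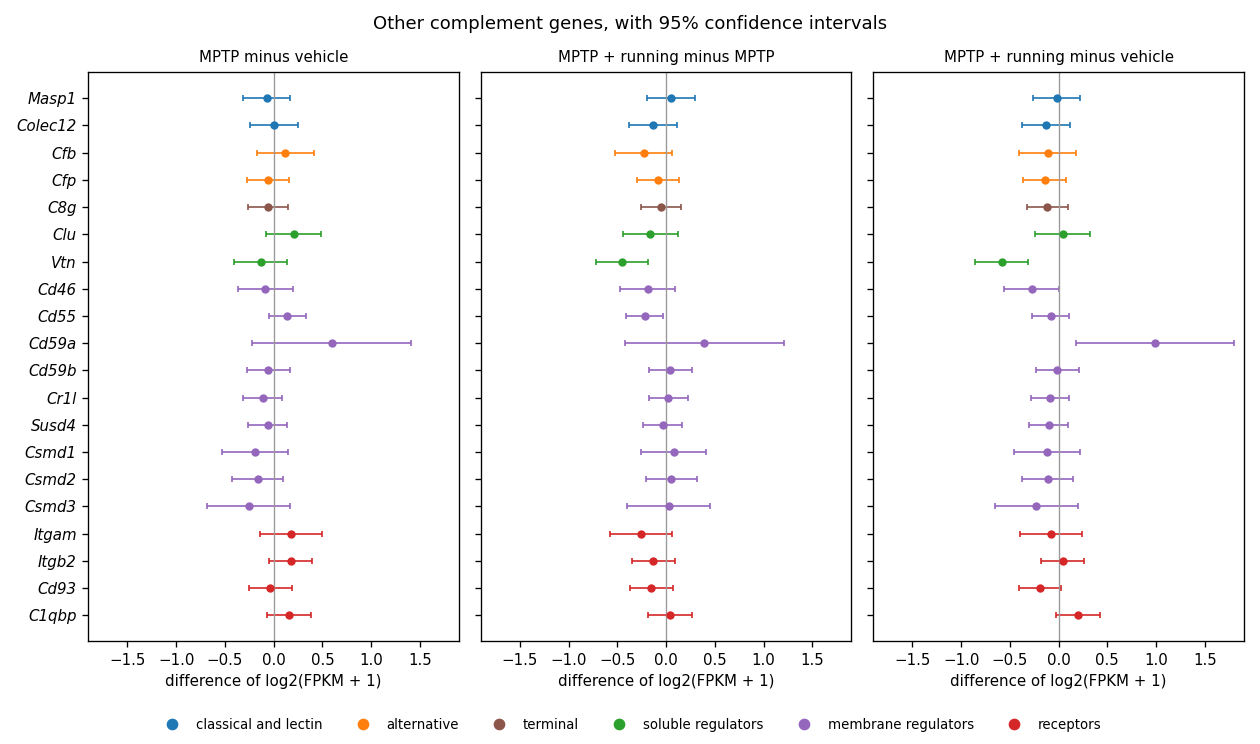
Difference of log2(FPKM + 1) with its 95% confidence interval (limma) for 20 of the 21 other complement genes tested, coloured by class, in 3 comparisons. Vtn lies below 0 in both comparisons with running mice (-0.45 and -0.58), and most other intervals hold 0.

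Markers of the other cell types that the tissue could hold were summed in the same way. Astrocyte markers summed to 618 to 714 FPKM in running mice, 563 to 680 FPKM in MPTP mice and 572 to 642 FPKM in vehicle mice, and neuron, oligodendrocyte and ependymal lists had median log2 differences of 0.06, -0.07 and 0.01 in MPTP against vehicle mice. The 9 markers of border macrophages and monocytes summed to 2.67 to 3.12 FPKM in running mice, 3.27 to 4.22 FPKM in MPTP mice and 3.36 to 3.87 FPKM in vehicle mice. Neutrophil markers summed to 0.783 to 2.28 FPKM in running mice, 4.89 to 8.29 FPKM in MPTP mice and 4.30 to 7.63 FPKM in vehicle mice, with a median log2 difference of -1.03 in running against MPTP mice over the 3 that were tested. Both sums were thus lowest in running mice, as the mean of Serping1 was, although Serping1 of running mice overlapped vehicle mice. Not every gene of the border list was lowest there. Cd163 averaged 0.5 FPKM in running mice, 0.488 FPKM in MPTP mice and 0.455 FPKM in vehicle mice. The part of these cells in Serping1 was not tested. Dopaminergic markers summed to 20.4 to 40.9 FPKM in running mice, 9.61 to 56.1 FPKM in MPTP mice and 16.4 to 38.7 FPKM in vehicle mice.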

How the data were processed

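Gene expression in 9 libraries of mouse substantia nigra was read from the table of FPKM that the authors deposited, with 55335 genes, with no rescaling. Per the labels' protocols, mRNA was enriched on magnetic beads and sequenced on an Illumina NovaSeq6000. Per the submitters' processing notes, the build was GRCm38 and bcl2fastq, HTSeq and DESeq2 were used, without versions. No source used here gives the aligner, the FPKM tool or the strand handling. Symbols (55154 genes matched, 181 not) and positions came from GENCODE M21.

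limma 3.58.1 (R 4.3.3) was fitted with a mean-variance trend to log2(FPKM + 1) of genes averaging at least 0.5 FPKM. All 9 libraries and 3 contrasts shared the fit (degrees of freedom 6 residual, 2.68 prior). p-values were Benjamini-Hochberg adjusted over 15997 genes, with a threshold of 0.05. The fit was tested on simulated data with planted changes larger than any difference of the members. That does not show whether differences as small as theirs would be found. FPKM carries no counts: steps between low values gave an estimated depth, with 44.1% to 46.1% of low values within 2% of a whole step, so no count test was run. Groups came from the labels. Single genes were also compared by exact permutation of the 20 splits. The members, the other complement genes and the marker lists were chosen with earlier results of these data known. Beside the members, the 2 genes of smallest p per class and the 5 genes of highest correlation (no Gm or Rik names, mean of at least 1 FPKM) were named.

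Replicate numbers have no stated meaning. Same-numbered MPTP and vehicle libraries deviated together from their group means (correlations 0.251, 0.33 and 0.105), so a blocked fit was run beside that comparison. The correlations of running with MPTP libraries were -0.339, -0.134 and 0.247, and with vehicle libraries -0.265, 0.00692 and 0.241.

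Alternatives were other filters, pseudocounts, scalings, array weights, 2-group fits, the block and leaving out each library. Of the other complement genes, 1 is counted but not reported here.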

Additional observations from a re-analysis of the deposited data

How the results depend on the processing

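No complement gene passed the threshold in any of 324 refits of the 8 tested members, and 20 refits gave the opposite sign. With array weights the log2 difference was -0.0416 for C1ra and -0.0277 for Serping1 in MPTP against vehicle mice, 0.104 for C1ra in running against MPTP mice and 0.0178 for C3ar1 in running against vehicle mice. In that last comparison, rescaling to the same sum gave -0.00241 for C1qa and -0.000304 for C1qb, and quantile normalization gave 0.0486 for C3ar1. Leaving out 1 library gave C1ra -0.0415 to 0.312 in MPTP against vehicle mice and -0.27 to 0.14 in running against MPTP mice. In running against vehicle mice it gave -0.30 to 0.12 for C3, -0.14 to 0.12 for C4b, -0.0933 to 0.232 for C1ra, -0.0789 to 0.0538 for C3ar1 and -0.00401 to 0.154 for C1qa. The cause was not tested.

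The count of all genes past the threshold was less stable. In MPTP against vehicle mice it was 2, and 0 with only those groups fitted. Without 1 library it ran from 0 to 32, with 32 without MPTP replicate 1, 0 without MPTP replicate 2 or 3, 4 without vehicle replicate 1 and 1 without vehicle replicate 3. In running against MPTP mice it was 0, against 3 with no filter, and 1 each with a minimum of 5 FPKM, with rescaling and with array weights. Without 1 library it ran from 0 to 25 (25 without MPTP replicate 1), and in running against vehicle mice from 0 to 2. With the replicate number as a block it was 3 in MPTP against vehicle mice and 0 in the other comparisons, and the block changed no call of a complement gene. Rescaling to the same sum moved the share of genes with a positive difference to 31.86% in MPTP against vehicle mice, from 48.15%, and to 29.19% in running against vehicle mice, from 44.66%. Low FPKM limits C1ra, C3, C3ar1 and C5ar1, which rest on an estimated 8 to 148 fragments a library.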
